A study of Bos taurus with 12 samples.

Results

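The isthmus is the narrow segment of the oviduct that joins the uterus, and its epithelium was compared here between the follicular phase (FP) and the luteal phase (LP) of the estrous cycle of normally cycling Angus heifers. RNA of isthmus epithelial cells from 6 heifers, 3 in each phase, was measured on 6 of the 12 arrays of the series, and the samples were chosen by their labels for stage and tissue alone. Prostaglandin F2α, which makes the corpus luteum regress, was given to the FP heifers on day 6 at a dose of 25 mg, 36 h before they were killed. Tissue of the LP was taken on day 11 or 12, and no treatment is given for its heifers, so the prostaglandin, the day of the cycle and the phase cannot be told apart. The cells were pressed with forceps out of pieces of the oviduct on the side of the preovulatory follicle (FP) or of the corpus luteum (LP), so other cell types may be present. Each array read 26773 probesets, and the 18010 genes with 1 symbol are described below. Values are log2 signals, on which a difference of 1 is a doubling, and levels of different genes are not comparable with each other.

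Estradiol from the preovulatory follicle dominates in the FP and progesterone from the corpus luteum in the LP. In cattle the isthmus epithelium binds sperm in a reservoir before ovulation, secretes proteins into the oviduct fluid and signals to the muscle beneath it, and the embryo passes through the segment on its way to the uterus. The epithelium is made of ciliated and secretory cells, and secreted proteins are folded, trimmed and glycosylated in the endoplasmic reticulum (ER) before they leave in vesicles.

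Correlations between arrays were 0.986 to 0.990 within the FP, 0.984 to 0.985 within the LP and 0.969 to 0.979 across the phases. LP heifer 1 was the LP heifer nearest to the FP, at 0.976 to 0.979 with the FP arrays against 0.969 to 0.976 for the other LP heifers. The labelled tissue had the markers of an epithelium in both phases: the mean signal of 18 epithelial cell markers was 9.70 to 9.90 in the FP and 9.79 to 9.89 in the LP, that of 27 mature ciliated cell markers was 10.65 to 10.71 and 10.59 to 10.79, and that of 12 secretory cell markers was 10.15 to 10.37 and 9.52 to 10.30. The means of the B and plasma cell and of the erythrocyte markers were 5.71 to 6.22 in all 6 heifers, near the lower quartile of all signals, 5.76, but the plasma cell gene JCHAIN was at 8.99 in LP heifer 3 and at 5.85 to 6.91 in the others. Without detection calls on these arrays, a fold change that starts or ends at or below that quartile has an uncertain size. In bulk RNA, fewer cells of a type and less RNA per cell cannot be told apart.

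With adjusted p under 0.05 and at least 1.5-fold changes required, 1178 probesets were higher in the FP isthmus (4.4% of those tested) and 1081 were lower (4.04%). Among genes with 1 symbol, 957 were higher (5.31%) and 826 lower (4.59%), and the median difference over all genes was -0.01. Counts of gene lists below are to be read against these shares. At least 2-fold changes were called for 355 higher and 280 lower genes, and at least 4-fold changes for 68 and 32. The FP and LP heifers did not overlap in 1768 of the 1783 called genes, a share that was not taken over all genes. The call itself favours genes without overlap, so this count is no separate evidence. In all, 555 higher and 419 lower genes passed again without each heifer in turn. Without a heifer, 742 to 932 genes were higher and 624 to 810 lower.

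**Figure D1:**
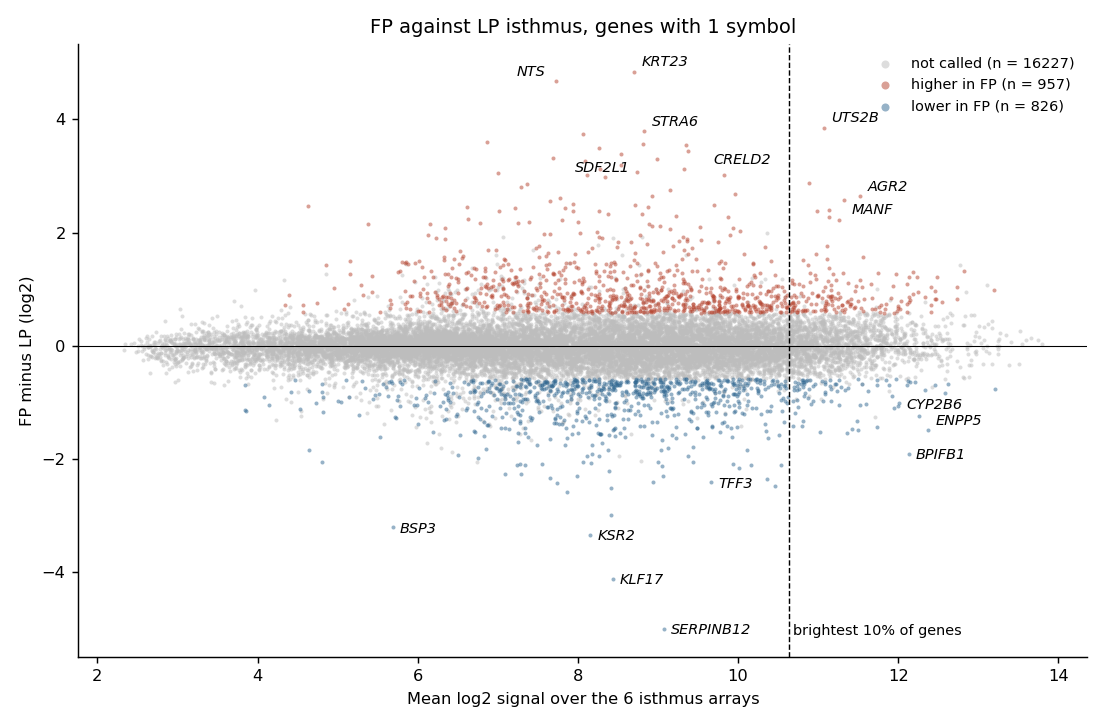
Difference between the FP and the LP isthmus (vertical axis, log2) against the mean signal over the 6 isthmus arrays (horizontal axis, log2) for 18010 genes, with genes higher in the FP in red, lower in blue and not called in grey. The dashed line marks the brightest 10% of genes, and the differences extend from -5.00 for SERPINB12 to 4.84 for KRT23, both at middle signal.

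The largest rise was that of KRT23, a keratin of epithelial intermediate filaments. Its signal was 10.61, 11.19 and 11.56 in the FP heifers and 8.46, 4.41 and 5.97 in the LP heifers. The largest changes were picked among called genes without overlap of the phases, and here the LP heifers lay far apart from each other. The difference was 4.84 (SE 0.75, adjusted p = 0.00196). Each SE and p-value here rests on a variance pooled over all 12 arrays of the series. They therefore do not measure the spread within the LP isthmus alone.

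NTS encodes neurotensin, a peptide that acts on smooth muscle and on sperm. Signals of 11.30, 9.24 and 9.63 in the FP stood against 6.23, 4.93 and 5.02 in the LP, a difference of 4.67 (SE 0.52, adjusted p = 0.000373). The LP mean of 5.39 lay under the lower quartile, so the size of the rise is uncertain. PCR of isthmus RNA in the study also gave more NTS in the FP. STRA6, the membrane receptor that takes up retinol from its binding protein, was read at 11.50, 9.98 and 10.70 in the FP and at 7.83, 5.84 and 7.14 in the LP, 3.79 higher (SE 0.55, adjusted p = 0.00142). Lipoprotein lipase (LPL), which frees fatty acids from circulating lipoproteins, was at 9.42, 9.96 and 10.63 in the FP and at 7.64, 5.78 and 6.11 in the LP, 3.5 higher (SE 0.43, adjusted p = 0.000612). In both genes LP heifer 1 was the highest of the LP.

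In some of the largest rises the nearest FP and LP heifers lay far apart. SLC7A11, the cystine importer that feeds glutathione synthesis, was at 8.80, 9.64 and 9.60 in the FP and at 6.24, 5.78 and 6.08 in the LP (difference 3.32, SE 0.34, adjusted p = 0.000298). PLA2G4D, a cytosolic phospholipase A2, was at 9.99, 9.56 and 9.60 against 6.79, 6.36 and 6.22 (3.26, SE 0.26, adjusted p = 7.63e-05). GFAP, an intermediate filament protein best known from astrocytes, was at 11.28, 10.45 and 10.17 against 7.14, 7.20 and 7.69 (3.29, SE 0.25, adjusted p = 6.55e-05). In all 3 genes the gap between the nearest FP and LP heifers was at least 2.48. CLEC3A, a C-type lectin, rose by 3.39 (SE 0.29, adjusted p = 0.000101), and the prion-like gene PRND rose by 3.74 (SE 0.44, adjusted p = 0.000532), with FP heifer 3 at 11.26 and the others at 9.42 and 9.10.

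**Figure D2:**
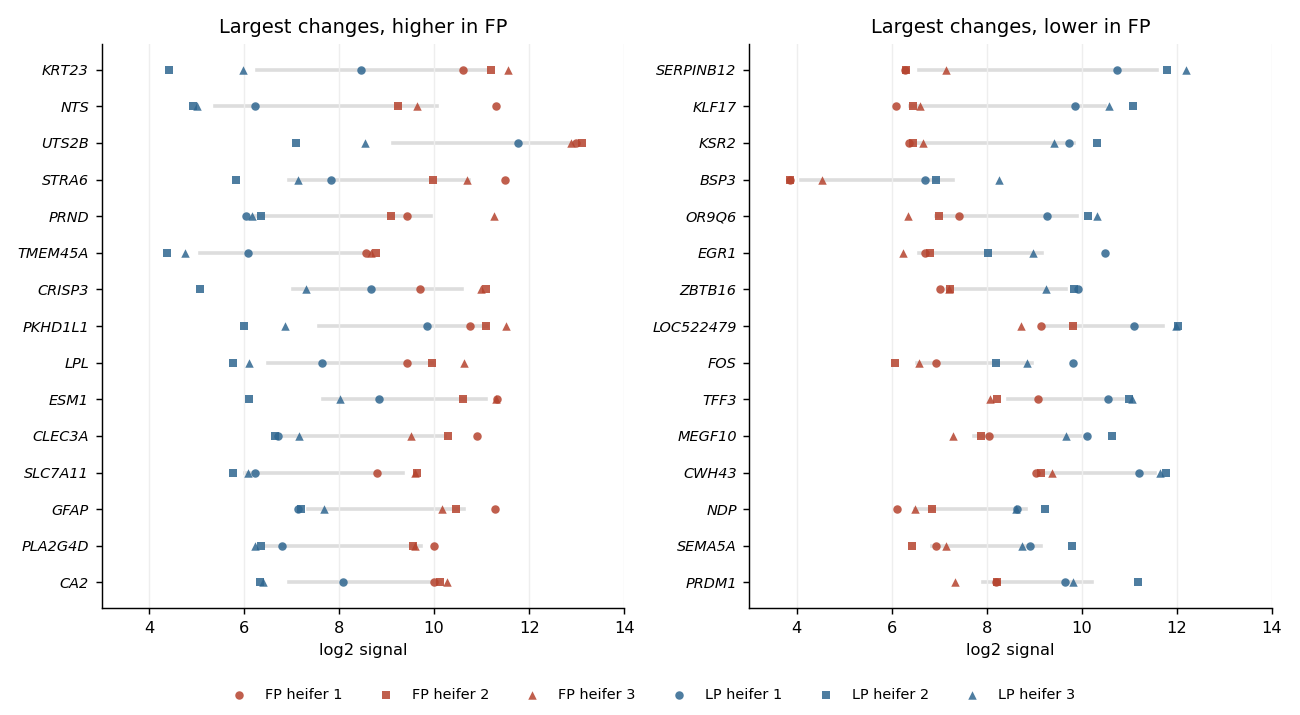
Log2 signal (horizontal axis) in each of the 6 heifers for the 15 largest changes in each direction among called genes with no overlap between FP and LP heifers. Red marks are FP and blue marks LP heifers, the shape gives the heifer's number and the grey bar joins the group means. For UTS2B the FP heifers lie between 12.88 and 13.11 and the LP heifers between 7.10 and 11.77.

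The strongest rises were set against an LP group whose heifers differed. Among the 68 genes at least 4-fold higher in the FP, the median SD was 0.662 in the LP and 0.275 in the FP, against 0.139 and 0.128 over all genes. LP heifer 1 was the highest LP heifer in 48 of the 68, LP heifer 3 in 16 and LP heifer 2 in 4. The LP range was over 2 in 18 of them and the FP range in 2. All 68 genes were still called without LP heifer 1, 63 without LP heifer 3 and 58 without LP heifer 2. Without FP heifer 1, 2 or 3 the count was 62, 59 or 58. From the 6 isthmus arrays alone, 58 of the 68 were called.

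UTS2B, which encodes a urotensin peptide related to vasoactive urotensin II, had the widest LP group of the bright genes, with 11.77, 7.10 and 8.55 in the LP against 13.00, 13.11 and 12.88 in the FP. The difference of 3.85 (SE 0.93, adjusted p = 0.0173) was 5.17 without LP heifer 1 and 2.83 without LP heifer 2, and the call was lost in 5 of 6 fits without a heifer, with an adjusted p of up to 0.0708. CORIN, the protease that activates natriuretic peptides, was at 12.03, 12.25 and 12.24 in the FP and at 11.70, 7.86 and 9.83 in the LP, so that LP heifer 1 nearly reached the FP. Its difference of 2.38 (SE 0.69, adjusted p = 0.0377) was 3.32 without LP heifer 1 and 1.41 without LP heifer 2, and of the 6 fits without a heifer it passed in 1, the fit without LP heifer 1. The secreted protein CRISP3, the large membrane protein PKHD1L1 and the proteoglycan ESM1, first known from endothelium, rose by 3.57, 3.55 and 3.43 with the same order of the LP heifers, and were lost without some heifers, with adjusted p up to 0.121, 0.0578 and 0.0959. Some markers of stroma and muscle were also highest in LP heifer 1 within the LP. Caldesmon (CALD1), an actin-binding protein of smooth muscle, was at 10.18 in LP heifer 1 and at 7.56 and 7.53 in the others, against 10.22 to 10.44 in the FP, and the matrix protein SPARC was at 11.37 in LP heifer 1 and at 8.98 and 9.47 in the others, against 11.98 to 12.60 in the FP. Over the 20 fibroblast markers the mean signal was 8.04, 7.48 and 6.94 in the LP heifers and 8.21, 7.49 and 7.62 in the FP heifers, with 1 member higher and 1 lower (5.0% each). The mean of 13 smooth muscle markers was 6.82, 6.43 and 6.50 in the LP heifers and 6.90, 6.69 and 6.73 in the FP heifers. Here too 1 was higher and 1 lower (7.7% each, against 5.31% and 4.59% of all genes). No smooth muscle marker was called higher when LP heifer 2 or any FP heifer was left out. Differences ran from -1.07 to 2.39 (median 0.29) in the fibroblast markers and from -1.01 to 1.88 (median 0.04) in the smooth muscle markers. The part of stromal and muscle RNA in these rises was not tested.

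**Figure D3:**
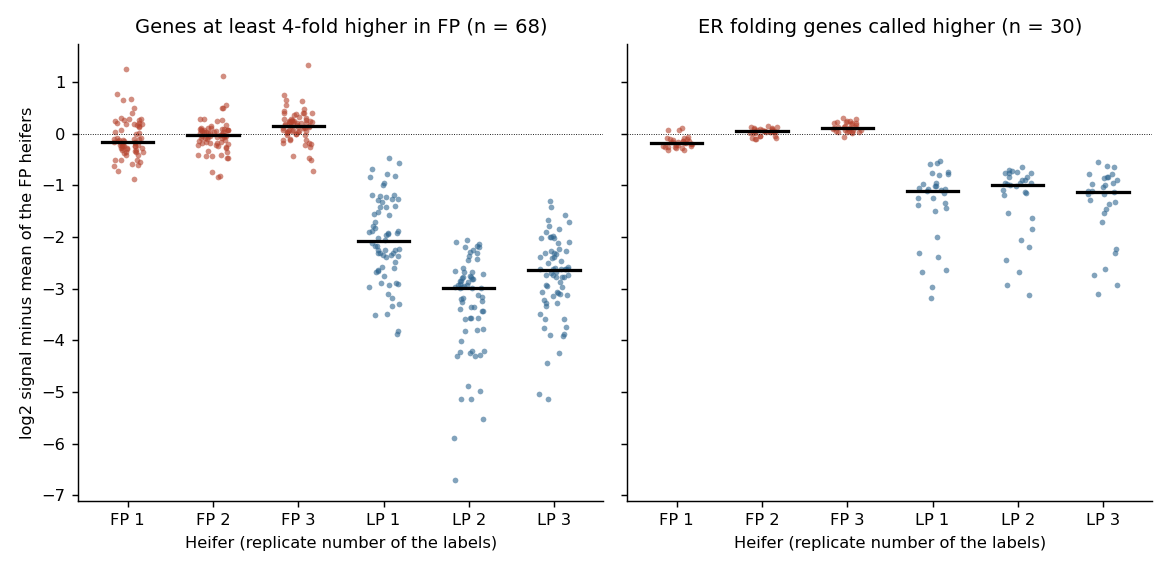
Log2 signal of each gene minus its mean in the FP heifers (vertical axis), by heifer (horizontal axis), for the 68 genes at least 4-fold higher in the FP (left) and for the 30 ER folding genes called higher (right); black lines are medians. In the left panel the medians of the LP heifers are -2.08, -2.99 and -2.65, and in the right panel -1.11, -0.98 and -1.13.

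Of the 10 steadiest rises, ranked by the share of the difference left between the nearest FP and LP heifers, 3 belonged to the list of ER folding genes, namely CRELD2, PPIB and SDF2L1. SDF2L1, an ER protein that works with the chaperone BiP, was at 10.05, 10.29 and 10.47 in the FP and at 7.29, 7.15 and 7.16 in the LP, 3.07 higher (SE 0.18, adjusted p = 2.13e-05). CRELD2, an ER stress-inducible protein, was at 11.16, 11.26 and 11.59 against 8.15, 8.40 and 8.41, 3.01 higher (SE 0.18, adjusted p = 2.13e-05). DNAJB11, a co-chaperone of BiP from the list of ER folding genes, was at 10.99, 11.40 and 11.51 against 8.66, 8.62 and 8.57, 2.68 higher (SE 0.14, adjusted p = 1.28e-05). The smallest gap between the phases in these 3 genes was 2.33.

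Of 35 measured genes of protein folding in the ER, 30 were higher, none was lower and all 35 differences were positive, with a median of 1.03. All 30 had FP heifers above LP heifers without overlap, as did nearly all called genes in either direction. They included the prolyl isomerase PPIB (12.87 to 12.97 in the FP and 11.84 to 11.92 in the LP), the disulfide isomerase PDIA4, which rose by 2.27 (SE 0.14), the chaperone HYOU1, which rose by 2.22 (SE 0.14), and MANF, an ER-resident stress factor that can be secreted, which rose by 2.58 (SE 0.16). The count was 30 without LP heifer 1 and 28 to 31 over the heifers left out. The LP heifers were close together here, with a median SD of 0.0945, against 0.662 in the 68 genes with the largest rises. The FP heifers lay farther apart, with a median SD of 0.175. FP heifer 1 was nearest to the LP in 27 of the 30 genes, and in 516 of all 957 genes called higher.

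The entry and exit of the ER moved the same way by smaller amounts. Of 25 genes of the translocon, the signal peptidase and the oligosaccharyltransferase, which move proteins into the ER, cut their signal peptide and attach the first glycans, 15 were higher and none lower, with a median of 0.60. SPCS3 rose by 1.24 (SE 0.16), OSTC by 1.10 (SE 0.09) and SEC61B by 0.92 (SE 0.10). Of 32 genes of the COPI and COPII coats, which carry cargo between the ER and the Golgi, 7 were higher and none lower, with a median of 0.36, led by the cargo receptor TMED3 at 1.07 (SE 0.13) and the coat subunit SEC24D at 0.96 (SE 0.11). Steady rises outside these lists were PEMT, which makes phosphatidylcholine by methylation, at 10.34 to 10.67 in the FP and 8.54 to 8.66 in the LP, the tubulin TUBA1B at 11.42 to 11.62 against 10.24 to 10.27, the mitochondrial carrier SLC25A35 at 8.29 to 8.39 against 6.58 to 6.64, and the ER-resident CNPY2 at 11.20 to 11.28 against 10.05 to 10.13.

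Genes bright in the isthmus, the 1801 with a mean signal of at least 10.64, were higher in 157 cases (8.72%) and lower in 82 (4.55%), with a median difference of 0.05. At least 2-fold changes were called for 46 and 21 of them. Of the 157, 15 were ER folding genes, as were 30 of all 957 genes called higher. Of the 50 brightest genes, 1 was higher and 1 lower. They were named after their values were seen: the ER chaperone HSP90B1, whose FP mean was 13.69 and LP mean 12.70, and IFI6, an interferon-induced mitochondrial protein, whose means were 12.83 and 13.59. OVGP1, the oviduct-specific glycoprotein that coats the egg, was also chosen after its values were seen. Its mean was 13.32 in the FP against 12.37 in the LP, and this difference of 0.95 (SE 0.45) did not pass (adjusted p = 0.188).

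AGR2, an ER disulfide isomerase of mucus-secreting cells, was at 12.63, 12.95 and 12.96 in the FP and at 10.35, 10.04 and 10.23 in the LP, a difference of 2.64 (SE 0.13, adjusted p = 1.28e-05). P2RX2, an ATP-gated cation channel, was at 12.59, 12.26 and 12.11 in the FP and at 11.03, 8.11 and 9.18 in the LP, 2.88 higher (SE 0.54, adjusted p = 0.00521). TMEM213, a small membrane protein, was at 12.39, 11.89 and 11.68 in the FP and at 9.66, 10.07 and 10.97 in the LP (1.76, SE 0.33, adjusted p = 0.00513), and here LP heifer 3 was nearest to the FP. The membrane mucin MUC1 was at 13.22, 13.19 and 13.03 against 12.34, 12.35 and 12.28, a rise of 0.82 (SE 0.12, adjusted p = 0.00162). ALDH1A1, which makes retinoic acid, was at 12.75 to 12.96 against 11.39 to 11.97.

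**Figure D4:**
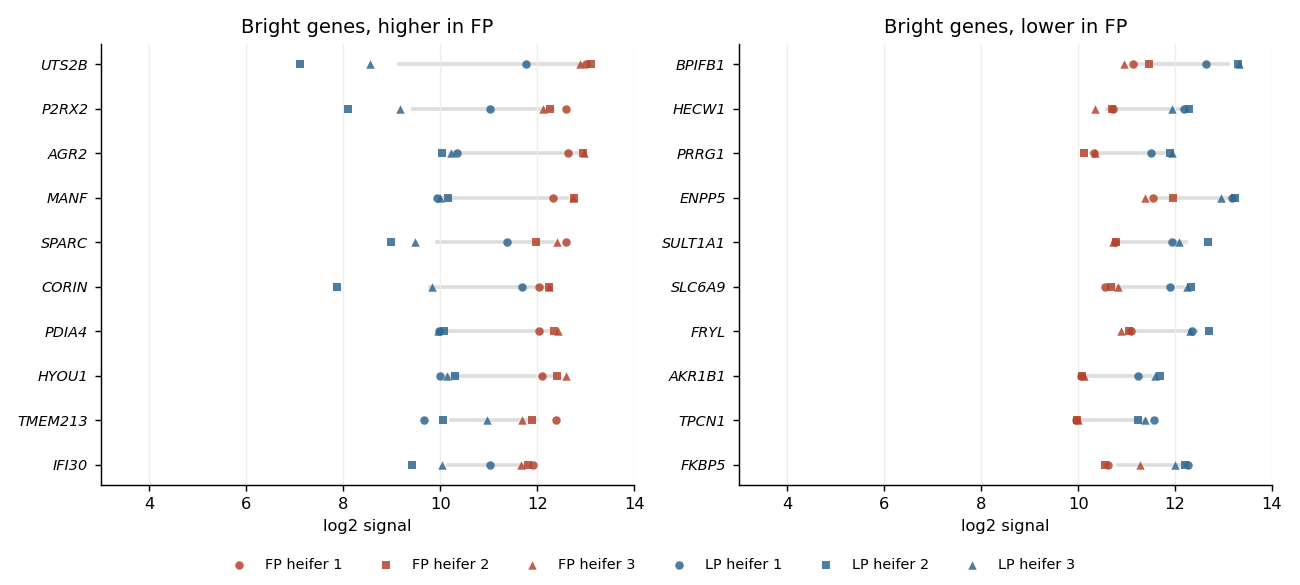
Log2 signal (horizontal axis) in each of the 6 heifers for the 10 largest changes in each direction among called genes in the brightest 10% of the isthmus, with marks as in the plot of the largest changes. AGR2, MANF, PDIA4 and HYOU1 have LP heifers within 0.32 of each other, while UTS2B, P2RX2, SPARC and CORIN have LP heifers spread over more than 2.

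Some genes of cell division were higher in the FP isthmus. Of 29 mitosis genes 12 rose and of 32 DNA replication genes 12 rose, with none lower and medians of 0.78 and 0.46. RRM2, the subunit of the ribonucleotide reductase that limits DNA synthesis, was at 8.15, 8.46 and 8.68 in the FP and at 5.52, 5.74 and 6.72 in the LP (2.43, SE 0.38, adjusted p = 0.00209). NCAPG, a condensin subunit, rose by 2.08 (SE 0.24, adjusted p = 0.000432) from an LP mean of 5.3, under the lower quartile. The proliferation marker MKI67 was at 7.76, 8.24 and 7.51 against 6.4, 5.35 and 7.16, so that LP heifer 3 lay near the FP, and its rise of 1.53 (SE 0.46, adjusted p = 0.0454) was lost in 5 of the 6 fits that left out a heifer. The mitosis count ran from 5 to 18 and the replication count from 6 to 11 without a heifer, with 5, 6 and 7 mitosis genes without FP heifer 2, LP heifer 1 and LP heifer 2, and 6 and 7 replication genes without LP heifer 1 and FP heifer 3. Among 25 genes of centriole amplification, the step by which a cell makes the many basal bodies of its cilia, 5 rose and none fell. CDC20B was at 8.53, 8.29 and 9.25 against 5.36, 5.44 and 6.85 (2.81, SE 0.45, adjusted p = 0.00239), and MIR449C, a microRNA gene that lies within CDC20B in human, rose by 2.46 (SE 0.39, adjusted p = 0.00229). That count fell to 2 without FP heifer 3, LP heifer 1 or LP heifer 2, and to 3 without FP heifer 2. Of 27 markers of mature cilia 1 was lower (3.7%, against 4.59% of all genes), the dynein DNAH5, which fell by 0.69 (SE 0.12). Of 12 secretory cell markers 3 were higher (25.0%, against 5.31% of all genes) and none lower, with a median of -0.02. The number higher was 2 to 4 without a heifer.

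Among metabolic genes the mitochondrial and amino acid lists held the most called higher. Of 56 genes of the respiratory chain and ATP synthase 15 were higher and none lower, with a median of 0.39, led by the synthase subunit ATP5MC1 at 10.98 to 11.20 in the FP and 9.74 to 9.91 in the LP. Of 28 genes of the ATF4 response, serine synthesis and amino acid transport 13 were higher and 3 lower, with 1 lower when any FP heifer or LP heifer 2 was left out. PSAT1, of serine synthesis, was at 10.62, 11.23 and 11.10 against 9.40, 8.32 and 8.96 (2.09, SE 0.28, adjusted p = 0.00101), while the glycine transporter SLC6A9 fell from 11.89 to 12.33 in the LP to 10.55 to 10.82 in the FP. Cholesterol synthesis had 4 of 15 genes higher and none lower, with a median of 0.50, led by NSDHL at 1.11 (SE 0.15), and the count was 2 without FP heifer 2 and 3 to 6 without each of the others. HSD17B7 differed by -0.20 (SE 0.14, adjusted p = 0.419). Fatty acid synthase (FASN) rose by 1.05 (SE 0.13). The glycolytic enzymes PGK1 and PKM rose by 0.86 (SE 0.13) and 0.73 (SE 0.10), and LDHA was at 7.17, 6.86 and 6.58 against 6.6, 5.39 and 5.82, with overlapping phases and an adjusted p of 0.039 that was lost in 5 of 6 fits without a heifer. The study reports a clearer rise of LDHA in both segments by array and by PCR. The LDHA probeset read here differed by -0.16 in the ampulla, so it may not be the one that the study read. PFKFB3, which makes the activator of glycolysis fructose 2,6-bisphosphate, fell by 1.22 (SE 0.23, adjusted p = 0.00495).

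The largest fall was that of SERPINB12, an intracellular serine protease inhibitor. Its signal was 6.28, 6.30 and 7.14 in the FP and 10.74, 11.79 and 12.18 in the LP, a difference of -5.00 (SE 0.44, adjusted p = 0.000122), and the nearest FP and LP heifers were 3.60 apart. KLF17, a zinc finger transcription factor, was at 6.09, 6.44 and 6.6 in the FP and at 9.85, 11.07 and 10.56 in the LP (-4.12, SE 0.40, adjusted p = 0.000218). KSR2, a scaffold of the MAP kinase cascade, was at 6.36, 6.44 and 6.65 against 9.73, 10.33 and 9.41 (-3.34, SE 0.25, adjusted p = 6.51e-05). All 3 genes were at or under 7.14 in each FP heifer and at or above 9.41 in each LP heifer.

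BSP3, the bovine binder of sperm protein, was at 3.86, 3.86 and 4.54 in the FP and at 6.70, 6.92 and 8.26 in the LP. The FP group lay under the lower quartile, so the difference of -3.20 (SE 0.36, adjusted p = 0.000387) is uncertain in size. PCR of isthmus RNA in the study also gave less BSP3 in the FP. TFF3, a trefoil peptide of mucus, was at 9.08, 8.21 and 8.06 in the FP and at 10.55, 10.99 and 11.05 in the LP (-2.41, SE 0.28, adjusted p = 0.00051). ZBTB16, a transcription factor that progesterone and glucocorticoids induce, was at 7.01, 7.23 and 7.20 against 9.91, 9.84 and 9.25 (-2.52, SE 0.43, adjusted p = 0.00317). These 3 genes were picked among called genes without overlap of the phases, and their widest group was the LP of BSP3, with an SD of 0.84. The cell surface and signalling genes MEGF10, CWH43, SEMA5A and NDP, picked by the same rule, fell by 2.40, 2.36, 2.30 and 2.34. PRDM1, a transcriptional repressor, fell by 2.30 with LP heifer 2 at 11.18 and the others at 9.63 and 9.82.

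The immediate early genes EGR1 and FOS fell with wide LP groups. EGR1 was at 6.70, 6.79 and 6.23 in the FP and at 10.49, 8.02 and 8.96 in the LP, and FOS was at 6.94, 6.06 and 6.56 against 9.81, 8.20 and 8.85. LP heifer 1 was the highest in both. The difference was -2.58 for EGR1 (SE 0.79, adjusted p = 0.0479) and -2.43 for FOS (SE 0.63, adjusted p = 0.0245), and both were lost in 5 of 6 fits without a heifer. By PCR of isthmus RNA the study also reports less EGR1 in the FP. Of 28 immediate early genes 3 fell (10.7%, against 4.59% of all genes) and 1, FOSL2, rose (3.6%, against 5.31%). The number that fell was 0 to 3 without a heifer and 1 without LP heifer 1.

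The steadiest falls included cell surface, lipid and signalling genes. VIPR2, a receptor of vasoactive intestinal peptide, was at 8.81, 8.92 and 8.97 in the FP and at 10.89, 11.00 and 11.04 in the LP (-2.08, SE 0.27, adjusted p = 0.000765). ABCA1, which exports cholesterol from cells, was at 8.56, 8.49 and 8.16 against 10.34, 10.34 and 10.36 (-1.95, SE 0.15, adjusted p = 6.51e-05), and the lysosomal cholesterol transporter NPC1 fell by 0.97 (SE 0.19, adjusted p = 0.00635). ZFP36L2, which binds and destabilises mRNAs, was at 9.27, 9.19 and 9.08 against 10.55, 10.66 and 10.70 (-1.46, SE 0.08, adjusted p = 1.28e-05). The sialyltransferase ST3GAL6, the Polycomb protein CBX7, the monooxygenase CYP2B6 and the WNT inhibitor NKD1 fell by 1.57, 1.21, 1.01 and 1.94, each with at least 0.87 of its difference left between the nearest heifers of the phases.

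Bright genes that fell were led by BPIFB1, a secreted protein of mucosal surfaces, at 11.13, 11.45 and 10.94 in the FP and 12.63, 13.31 and 13.32 in the LP (-1.91, SE 0.20, adjusted p = 0.000302). ENPP5, a membrane phosphodiesterase, was at 11.55, 11.96 and 11.38 against 13.17, 13.23 and 12.94 (-1.49, SE 0.19, adjusted p = 0.000678). AKR1B1, an aldose reductase that also makes prostaglandin F2α, was at 10.06, 10.08 and 10.13 against 11.24, 11.69 and 11.60 (-1.42, SE 0.20, adjusted p = 0.00122). The phases did not overlap in any of these 3 genes, as in nearly all called genes. FKBP5, a chaperone of steroid receptors that progesterone and glucocorticoids induce, was at 10.62, 10.56 and 11.27 against 12.26, 12.21 and 11.99 (-1.34, SE 0.24, adjusted p = 0.00388). The sulfotransferase SULT1A1, the endosomal channel TPCN1, the ubiquitin ligase HECW1 and PRRG1 fell by 1.42 to 1.54.

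**Figure D5:**
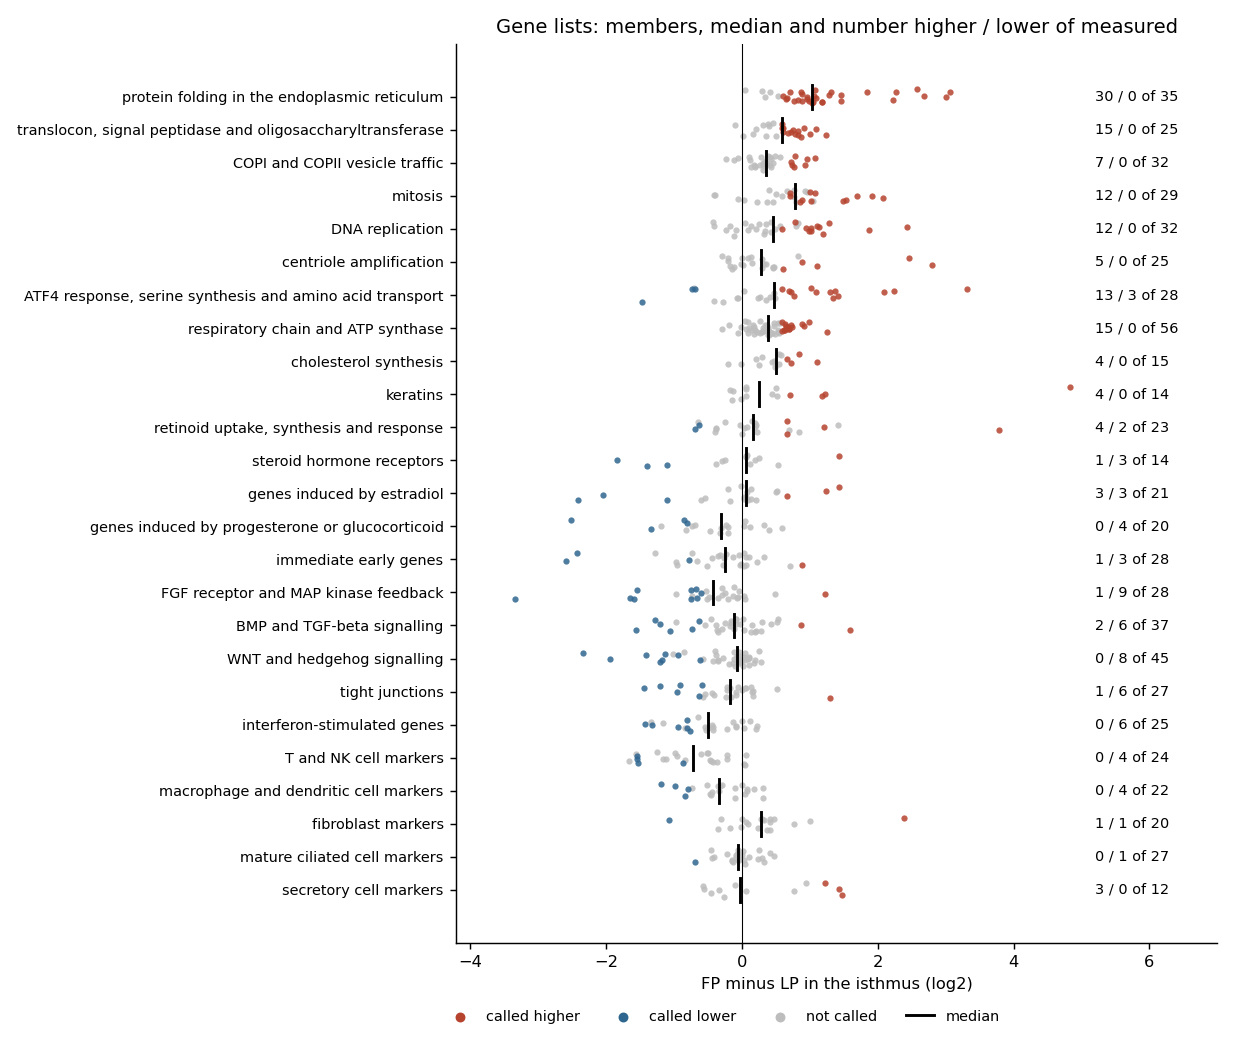
Difference between the FP and the LP isthmus (horizontal axis, log2) of each measured member of 25 gene lists (rows), with members called higher in red, called lower in blue and not called in grey, and the list's median as a black line. The number called higher, called lower and measured stands at the right. Examples are 30 higher of 35 ER folding genes and 4 lower of 24 T and NK cell markers.

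The receptors of the ovarian steroids did not move together. The progesterone receptor PGR was at 11.67, 11.76 and 11.32 in the FP and at 10.23, 10.10 and 10.14 in the LP, 1.43 higher (SE 0.24, adjusted p = 0.00317). The estrogen receptor ESR2 was at 9.65, 9.71 and 9.56 against 10.98, 11.23 and 10.88 (-1.39, SE 0.25, adjusted p = 0.00433), while ESR1 was at 12.69, 12.67 and 12.59 against 12.67, 12.42 and 12.68 and did not pass (0.06, SE 0.12, adjusted p = 0.813). The phases of ESR1 overlapped. PAQR5, a membrane progestin receptor, fell by 1.84 (SE 0.27, adjusted p = 0.00138) and the mineralocorticoid receptor NR3C2 by 1.09 (SE 0.13, adjusted p = 0.000461). PGRMC1 differed by 0.53 (SE 0.11, adjusted p = 0.00812), under the minimum fold, and the other 8 of the 14 receptors lay between -0.38 and 0.25 and did not pass. Of 21 genes known to be induced by estradiol 3 were higher, among them PGR and the estrogen receptor cofactor GREB1 at 1.24 (SE 0.13), and 3 were lower, among them TFF3, with 1 lower without FP heifer 1, FP heifer 2 or LP heifer 3. Of 20 genes known to be induced by progesterone or glucocorticoid 4 were lower and none higher, with a median of -0.31, namely ZBTB16, FKBP5, ERRFI1 and TSC22D3, the last of which was lost without FP heifer 1 or FP heifer 2.

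Genes were called lower in 3 lists of growth factor signalling, in each of which most members did not pass. Of 28 genes of FGF receptor and MAP kinase feedback 9 were lower and 1 higher, with a median of -0.42. SPRY1, which dampens receptor tyrosine kinase signals, was at 10.04, 9.71 and 9.39 in the FP and at 11.10, 11.51 and 11.28 in the LP (-1.58, SE 0.20, adjusted p = 0.000769), and RASAL1, a RAS inhibitor, and ETV1, a transcription factor induced by the pathway, fell by 1.64 (SE 0.14) and 1.54 (SE 0.27). Of 45 genes of WNT and hedgehog signalling 8 were lower and none higher. The hedgehog ligand IHH was at 8.46, 7.98 and 7.78 against 9.51, 9.39 and 9.55 (-1.41, SE 0.17, adjusted p = 0.000591), and the hedgehog receptor and target PTCH1 was at 9.05, 9.04 and 8.96 against 10.09, 10.35 and 10.12 (-1.17, SE 0.10, adjusted p = 0.000122). Of 37 genes of BMP and TGF-beta signalling 6 were lower (16.2%), among them the decoy receptor BAMBI at -1.56 (SE 0.18) and the signal transducer SMAD3 at -1.2 (SE 0.12). In this list 2 were higher (5.4%, near the 5.31% of all genes), among them the ligand TGFB3 at 1.59 (SE 0.28). BMP4 was lost in 5 of 6 fits without a heifer.

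The lists of retinoids, transport, prostaglandins and contractile signals held single genes with large changes, while their medians lay between -0.10 and 0.16. Of 23 retinoid genes 4 were higher, among them STRA6 and ALDH1A1, and 2 lower, but none was lower when a heifer other than LP heifer 3 was left out. Carbonic anhydrase CA2, which makes bicarbonate, was at 10.13 on average (SD 0.13, n = 3) in the FP and at 8.08, 6.34 and 6.4 in the LP (3.19, SE 0.41, adjusted p = 0.000807), whereas CA10, a relative without enzymatic activity, and CA13 fell by 2.27 (SE 0.37) and 1.46 (SE 0.27). The chloride channel ANO1 was at 10.65, 11.58 and 10.81 against 9.13, 8.03 and 9.04 (2.28, SE 0.35, adjusted p = 0.00173). Of 46 genes of ion and water transport 3 were higher (6.5%) and 4 lower (8.7%), near the 5.31% and 4.59% of all genes. SLC2A10, a sugar transporter, was at 9.27, 9.55 and 10.01 against 6.32, 6.62 and 6.87 (3.01, SE 0.21, adjusted p = 4.62e-05). It was the only one of 16 glucose transporters called higher (6.2%, near the 5.31% of all genes). Of the 16, 2 were lower (12.5%), and 0 without FP heifer 2. Of 27 prostaglandin genes 2 were higher (7.4%), PLA2G4D and its relative PLA2G4F at 10.01, 9.66 and 9.80 against 7.23, 6.25 and 7.05 (2.98, SE 0.35, adjusted p = 0.000479), and 2 were lower (7.4%), AKR1B1 and CBR1, of which 1 was left without FP heifer 2. Of 30 genes of contractile signals 5 were higher (3 without FP heifer 1), among them NTS, P2RX2 and the natriuretic peptide receptor NPR2 at 1.16 (SE 0.20), and 3 lower, among them the nitric oxide synthase NOS1, which fell by 0.95 (SE 0.18).

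Most genes of tight junctions and most keratins did not pass. Of 27 tight junction genes 6 were lower and 1 higher. Claudin CLDN4, which seals the paracellular space, was at 9.19, 8.94 and 8.76 in the FP and at 10.29, 10.31 and 10.58 in the LP (-1.43, SE 0.18, adjusted p = 0.000807), and CLDN3 and CLDN8 fell by 0.91 (SE 0.09) and 1.2 (SE 0.20). CLDN11 rose by 1.29 (SE 0.37) but was lost without some heifers, with an adjusted p of up to 0.137. Of 14 keratins 4 were higher and none lower, namely KRT23, KRT7 at 1.22 (SE 0.17), KRT5 at 1.18 (SE 0.17) and KRT8 at 0.72 (SE 0.13).

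Several interferon-stimulated genes and markers of immune cells were lower in the FP isthmus. Of 25 interferon-stimulated genes 6 fell and none rose, with a median of -0.49. IRF9, a transcription factor of the interferon response, was at 7.13, 7.31 and 7.53 in the FP and at 8.34, 8.67 and 8.91 in the LP (-1.32, SE 0.18, adjusted p = 0.00102), and XAF1, a proapoptotic interferon target, fell by 0.80 (SE 0.14, adjusted p = 0.00318). The antiviral GTPase MX1 was at 8.64, 9.32 and 9.87 against 10.70, 10.81 and 10.60 (-1.43, SE 0.34, adjusted p = 0.0155) and was lost without FP heifer 1 or LP heifer 2. That count was 3 without FP heifer 1 and 5 to 9 without each of the others. IFI30, an interferon-inducible gene outside this list that the rule for bright genes named, rose by 1.63 (SE 0.32, adjusted p = 0.00642). Of 24 T and NK cell markers 4 fell and none rose, with a median of -0.72 and a mean signal of 5.92 to 6.29 in the FP and 6.52 to 7.32 in the LP. The FP means lay near the lower quartile of all signals, 5.76, so the sizes of these falls are uncertain. KLRD1, a receptor of NK cells, was at 6.48, 6.54 and 6.42 against 8.01, 7.74 and 8.33 (-1.54, SE 0.32, adjusted p = 0.00855), and LP heifer 3 was the highest here and over the list. The other 3, CD96, KLRK1 and CD7, were lost without some heifers, and the count was 1 when any of the FP heifers was left out, 2 without LP heifer 1 and 4 or 5 without LP heifer 2 or LP heifer 3. Of 22 macrophage and dendritic cell markers 4 fell and none rose, with means of 6.69 to 6.88 and 6.94 to 7.38, and all 4, C1QA, C1QB, C1QC and CSF1R, were lost without some heifers, so that 0 to 2 remained called. Of 24 complement genes 5 fell, 3 of which were these C1q chains, and the count was 1 without FP heifer 3 or LP heifer 3 and 3 or 4 without each of the others. The part of immune cells in the lower interferon and complement signals was not tested. Toll-like receptor TLR5, which senses flagellin, was at 9.94, 9.79 and 10.48 in the FP and 9.37, 8.22 and 8.03 in the LP (1.53, SE 0.30, adjusted p = 0.00632). It was the 1 gene called higher of 37 pattern recognition genes (2.7%, against 5.31% of all genes). From that list 5 others fell (13.5%), or 3 without LP heifer 2 or LP heifer 3.

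The change in the isthmus differed from that in the ampulla, the wider segment toward the ovary, in 31 genes (0.172% of those tested) by the phase by tissue interaction, of which 5 were higher and 16 lower in the FP isthmus. The ampulla and the isthmus came from the same heifers, and with heifer as a fixed block 19 probesets passed in place of 41. CLEC3A was among those with the smallest p, at 3.39 in the isthmus and -0.09 in the ampulla (difference 3.48, adjusted p = 0.0154, and 0.0208 with the block). KSR2 was another, at -3.34 and -0.39 (difference -2.95, adjusted p = 0.0154, and 0.00286 with the block). In the ampulla the phase means of CLEC3A and KSR2 were 6.26 to 6.65, near the lower quartile of 5.76, so the sizes are uncertain. For SERPINB12, UTS2B and CORIN the tissue difference did not pass (adjusted p = 0.0583, 0.571 and 0.460).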

How the data were processed

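The authors put the epithelial cell RNA of each sample, unpooled, on 1 Bovine Gene 1.0 ST array. The deposited log2 values come from the software GCOS (version 1.2 per the submitters' notes) and Partek (for which the notes and the study's methods give different versions), through RMA background correction, quantile normalization, a log2 step and median polish. These values were used as deposited. Symbols came from the platform's annotation: 18457 probesets had 1 symbol, 688 several and 7628 none, and of 401 genes with more than 1 probeset the brightest was read. No genome build is named in the file, so no positions are given, and promoter motifs were not analysed.

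FP isthmus minus LP isthmus was tested in limma 3.58.1 (R 4.3.3), in a model of all 12 arrays that gave each group its own mean and left 8 residual degrees of freedom. P-values were adjusted by Benjamini-Hochberg over 26773 probesets. DEGs needed both an adjusted p under 0.05 and at least a 1.5-fold change. Plots were drawn with Python 3.11.15 and matplotlib 3.10.9. A simulation in which 200 of 26773 probesets differed between the isthmus groups recovered 80% of changes of 1 and 98% of changes of 2 on the log2 scale, with 9 false calls. It drew independent noise with the same SD in every group and changed fewer probesets than were called in the data. Its rates may not hold for genes with a wide LP group or for heifers shared between the tissues. Precision is limited by the number of arrays.

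The members, the 41 lists (1048 symbols, 973 measured) and the rule for named genes were chosen with earlier results of these data known. The rule took the 15 largest changes per direction without overlap, the 10 steadiest among at least 2-fold changes, the 10 largest among bright genes, up to 4 called members per list, the 5 interactions with the smallest p, the steroid receptors and 9 genes that the study names. Of 197 such genes 182 were called. Alternatives were the study's F-test with LSD contrasts, the 6 isthmus arrays alone, an intensity trend, a median shift, a filter on dim probesets, blocks, other fold minimums and leaving out each heifer.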

Additional observations from a re-analysis of the deposited data

Results flagged for a closer look

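For 11 of the genes named by rule the change between the phases differed between isthmus and ampulla by the interaction term of limma (adjusted p under 0.05 over all probesets). The isthmus change exceeded that in the ampulla by 3.48 for CLEC3A and 2.13 for VAT1L, both of which rose in the isthmus. The difference was -2.95 for KSR2, -3.16 for BSP3, -3.21 for LOC522479, -2.11 for NDP, -2.55 for SEMA5A, -1.28 for ABCA1, -1.79 for IHH and -1.83 for CYLC1, all of which fell in the isthmus, and -2.04 for INSIG1, a sterol-regulated ER protein that rose by 0.76 in the isthmus and 2.80 in the ampulla. ABCA1 fell in both segments, by 1.95 in the isthmus and 0.66 in the ampulla. With heifer as a fixed block the adjusted p was 0.0208 for CLEC3A, 0.00286 for KSR2, 0.035 for LOC522479, 0.0109 for INSIG1, 0.0109 for IHH and 0.0208 for CYLC1, and over 0.05 for BSP3 (0.19), NDP (0.0771), SEMA5A (0.104), ABCA1 (0.122) and VAT1L (0.0803). Each of the 11 was lost without at least 1 heifer, with adjusted p of up to 0.121 for CYLC1 and 0.302 for BSP3. In BSP3, CYLC1 and LOC522479 the ampulla means lay between 3.23 and 6.47, and in CLEC3A, KSR2, NDP, SEMA5A and IHH between 6.02 and 6.65. These levels are near or below the lower quartile of all signals, 5.76, so that the sizes are uncertain.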

How the results depend on the processing

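The calls in the isthmus depended most on the minimum fold: with none, 2336 probesets were higher and 2237 lower, and at 2-fold 411 and 371. Without each heifer in turn the counts were 905 to 1143 higher and 810 to 1045 lower. The animal number of the labels marks different heifers in the FP and the LP, whose deviations of the same number correlated at -0.026 to 0.074, so it pairs nothing between the phases. With a replicate block on that number 1152 probesets were higher and 1059 lower. The ampulla and isthmus of a heifer share an animal, and the interaction count of 41 probesets became 23 with the block on the number, 19 with heifer as a fixed block, 59 as a random block (correlation 0.0885), and 0 to 141 without a heifer. It was 0 without FP heifer 2 and 141 without LP heifer 1. Of 2259 called probesets, 1822 were called again from the 6 isthmus arrays alone, 2054 by the study's F-test with LSD contrasts and 2130 after a median shift of the arrays, none in the opposite direction. Of 182 called named genes 141 passed without each heifer and 41 did not. No named gene reversed. The size is uncertain for 68 rises whose LP mean lay at or under the lower quartile and for 57 falls whose FP mean did. In 9 of these rises and 21 of these falls the means of both phases lay there, and whether their direction is secure was not tested.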
